A study of Mus musculus with 12 samples.

Results

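The genes described here are the Tribbles pseudokinases *Trib1*, *Trib2* and *Trib3* and the C/EBP genes *Cebpa*, *Cebpb*, *Cebpd*, *Cebpg* and *Cebpz*, which are 8 of the 12960 genes in the counts. They were taken by gene symbol, and all 8 symbols were present. The set was put together because *Trib1* had been seen to fall after the AMPK activator PF-06409577 (PF) in WT and not in AMPKβ1-/- cells, so *Trib1* was chosen by its response to PF in these libraries and its levels are given below as a description without a test. The other genes were added as its family and as genes with a C/EBP name, of which *Cebpa* encodes the factor whose degradation TRIB1 directs.

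RNA sequencing was carried out on bone marrow-derived macrophages (BMDMs) of WT mice and of mice lacking the AMPKβ1 subunit (AMPKβ1-/-), with the marrow cells differentiated in L929-conditioned medium, a source of M-CSF. The cells received vehicle (0.1% DMSO) or 10 μM PF for 6 h. The 4 groups were WT with vehicle, WT with PF, AMPKβ1-/- with vehicle and AMPKβ1-/- with PF, with 3 libraries each. The labels do not say whether the libraries of a group came from separate mice, so the p-values below measure the spread between these libraries, which may be technical. In libraries of bulk RNA, fewer cells of a type and less RNA per cell cannot be told apart.

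Tribbles proteins have a kinase fold with little or no catalytic activity and act as scaffolds: the TRIB1 and TRIB2 tails bind the ubiquitin ligase COP1 while the pseudokinase domain holds C/EBPα, which is then degraded. C/EBPα, C/EBPβ and C/EBPδ are basic leucine zipper (bZIP) factors that drive myeloid differentiation and inflammatory gene expression in macrophages, and mice without *Trib1* lack part of their tissue macrophages. TRIB3 is an inhibitor of AKT and a target of the stress factors ATF4 and CHOP. The counts measure mRNA, so the stability of the C/EBP proteins is outside what they show.

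The libraries held 8935609 to 14358180 counts, and 3 counts, the floor used for a gene near 0, corresponded to 0.196 to 0.321 CPM (counts scaled to the library's total). *Prkab1*, which encodes AMPKβ1, was at 43.4 to 45.3 CPM in WT with vehicle, 37.3 to 41.9 in WT with PF, 6.05 to 8.39 in AMPKβ1-/- with vehicle and 7.90 to 9.42 in AMPKβ1-/- with PF. Macrophage markers summed to between 25191 and 29681 CPM in every library, and all 8 of them passed the filter on low counts, but 3 of the 8 (*Csf1r*, *Itgam* and *Cd14*) were called lower with PF in WT. *Lyz2* alone averaged 14121 to 15512 CPM in the groups. Granulocyte markers summed to 0.530 to 1.74 CPM, dendritic cell markers to 0.372 to 1.07 and lymphoid markers to 0 to 0.187. Fibroblast markers summed to 2.67 to 9.66 CPM in AMPKβ1-/- with vehicle and 1.31 to 3.18 in the other groups, with 2 of 5 above the filter on low counts, and their part in the results was not tested. How far counts depended on the GC content of a gene was not the same in every library. The slope, in log2 units per 10 percentage points of GC, was 0.36 to 0.72 in WT with vehicle, −0.051 to 0.37 in WT with PF, −0.36 to −0.10 in AMPKβ1-/- with vehicle and −0.51 to −0.33 in AMPKβ1-/- with PF. The mean slope was also lower with PF than with vehicle, in WT (0.16 against 0.53) and in AMPKβ1-/- (−0.43 against −0.27). GC slope cannot be told apart from genotype by this design, nor fully from PF. Values from a fit that takes out each library's trend with GC content and transcript length (trend removed) are therefore given beside the results.

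The starts of 3 of the genes are printed as a description of their sequences. These windows lie mostly before the transcript, so their GC content is not that of the counted transcripts. RefSeq promoters (GRCm38.p6, from 250 bases before to 50 after the start) were at hand for *Trib2*, *Trib3*, *Cebpa*, *Cebpb* and *Cebpg*, 5 of the 8 genes. *Trib3* is shown for the element that ATF4 and CHOP bind, *Cebpb* for its CRE cores and *Cebpg* for its CCAAT boxes. Each is printed 5′ to 3′ on the strand of the gene, and capitals mark every match on either strand. The motifs searched were the CCAAT box with the letters CCAAT, the core of a cAMP response element (CRE) with the letters TGACG, the C/EBP-ATF element with the letters TGATGNAA, a palindromic C/EBP site with the letters TTGCNNAA and the TATA box with the letters TATAAA.
Trib3, chr2:152344011-152344310, minus strand: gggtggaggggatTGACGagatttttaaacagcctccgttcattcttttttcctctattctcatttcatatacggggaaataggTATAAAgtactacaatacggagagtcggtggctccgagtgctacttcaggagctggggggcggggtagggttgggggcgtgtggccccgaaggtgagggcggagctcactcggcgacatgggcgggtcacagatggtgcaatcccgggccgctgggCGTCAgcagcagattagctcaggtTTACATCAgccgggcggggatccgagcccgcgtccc
Cebpb, chr2:167688665-167688964, plus strand: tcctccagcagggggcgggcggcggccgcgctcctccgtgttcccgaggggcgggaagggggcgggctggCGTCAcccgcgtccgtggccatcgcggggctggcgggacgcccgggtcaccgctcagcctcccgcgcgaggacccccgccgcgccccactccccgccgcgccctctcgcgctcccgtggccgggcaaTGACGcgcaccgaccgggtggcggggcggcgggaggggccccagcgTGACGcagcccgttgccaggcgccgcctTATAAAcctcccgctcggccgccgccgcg
Cebpg, chr7:35056517-35056816, minus strand: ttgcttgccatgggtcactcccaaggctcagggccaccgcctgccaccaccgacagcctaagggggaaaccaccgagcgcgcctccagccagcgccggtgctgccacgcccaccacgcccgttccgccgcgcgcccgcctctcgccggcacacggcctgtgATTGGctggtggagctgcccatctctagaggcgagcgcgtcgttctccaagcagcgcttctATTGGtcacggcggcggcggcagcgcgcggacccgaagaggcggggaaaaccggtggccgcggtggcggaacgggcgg

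The *Trib3* window was 58.3% GC and held 21 CpG. It had TGACG 237 bases before the start and, on the reverse strand, 10 bases before it, TATAAA 166 bases before it, and a reverse TGATGNAA 14 bases after it, which in the line above reads TTACATCA. TGATGNAA was found in 3.97% of the 32851 RefSeq promoters searched and TGACG in 20.8%. The *Cebpb* window was 80.7% GC with 50 CpG, against a median of 52.7% GC over all promoters. It had 3 matches to TGACG, at 180 bases before the start on the reverse strand and at 53 and 7 bases before it on the forward strand, and TATAAA 21 bases after it. The *Cebpg* window, at 71.7% GC, had CCAAT on the reverse strand, printed as ATTGG, 89 and 28 bases before the start, and 37.4% of all promoters had that motif. The *Cebpa* window, at 67.3% GC, held TATAAA 30 bases before the start, a motif of 13.6% of promoters, and the *Trib2* window had no match. TTGCNNAA, in 10.8% of all promoters, was in none of these 5 windows. A match is a description of the letters and was not tested as a binding site.

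The genes also differ in structure. On GRCm38, *Trib1* lies at chr15:59648350-59657099 on the plus strand, *Trib2* at chr12:15791727-15816922 on the minus strand, *Trib3* at chr2:152337422-152344032 on the minus strand, and the first 2 have 3 exons and *Trib3* has 4. *Cebpa* (chr7:35119293-35121928), *Cebpb* (chr2:167688915-167690418) and *Cebpd* (chr16:15887286-15891031) each have 1 exon, on the plus strand. *Cebpg* (chr7:35046422-35056573, 2 exons) and *Cebpz* (chr17:78919006-78937066, 16 exons) are on the minus strand. The transcripts of *Cebpg* and *Cebpz* were 43.3% and 43.4% GC, *Cebpd* 51.6%, *Trib1* 54.0%, *Trib3* 58.2%, *Cebpa* 62.6% and *Cebpb* 67.2%, while the median tested gene had 50.1%. An annotated gene overlaps on the opposite strand at *Cebpa* (*Gm45091*), *Cebpb* (*Tmem189*), *Cebpd* (*Spidr*), *Cebpg* (*Gm45095*) and *Cebpz* (*Cebpzos*). The libraries were made with a directional kit, and the strand setting of the counting is not given in the sources used here.

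*Cebpa* was the most abundant of these transcripts per length in every group. As CPM per kilobase of transcript over all 12 libraries, *Cebpa* stood at 75.6, above 91.4% of the tested genes, and *Cebpb* at 36.5, above 82.0%. *Cebpd* was at 11.99, *Cebpg* at 6.18, *Trib1* at 5.27, *Trib3* at 5.05 and *Cebpz* at 3.19. *Trib2* had 0 to 2 counts in each library, below the 3-count floor everywhere, so it was not tested and no fold is given. The other 7 genes passed the filter on low counts.

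In WT with vehicle the order in CPM per kilobase was *Cebpa* (87.3 ± 1.68, SD, n = 3), *Cebpb* (26.4 ± 3.55), *Cebpd* (14.1 ± 0.483), *Trib3* (5.00 ± 0.171), *Trib1* (4.80 ± 0.177), *Cebpg* (3.59 ± 0.501) and *Cebpz* (1.64 ± 0.379). *Trib3* and *Trib1* were the only neighbours in that order whose libraries overlapped. With PF, *Trib3* reached 7.94 ± 1.25 and overlapped *Cebpd* at 8.39 ± 1.20, while *Trib1* dropped to the end of the tested genes at 2.43 ± 0.272 and overlapped *Cebpz* at 2.54 ± 0.400. In AMPKβ1-/- with vehicle, *Cebpg* (7.70 ± 0.301) and *Trib1* (7.20 ± 0.445) overlapped in 4th and 5th place, and *Cebpz* (3.86 ± 0.498) overlapped *Trib3* (3.498 ± 0.582) at the end. In AMPKβ1-/- with PF the same order held with no neighbours overlapping, from *Cebpg* at 8.24 ± 0.316 through *Trib1* at 6.65 ± 0.294 and *Cebpz* at 4.73 ± 0.216 to *Trib3* at 3.75 ± 0.482.

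**Figure D1:**
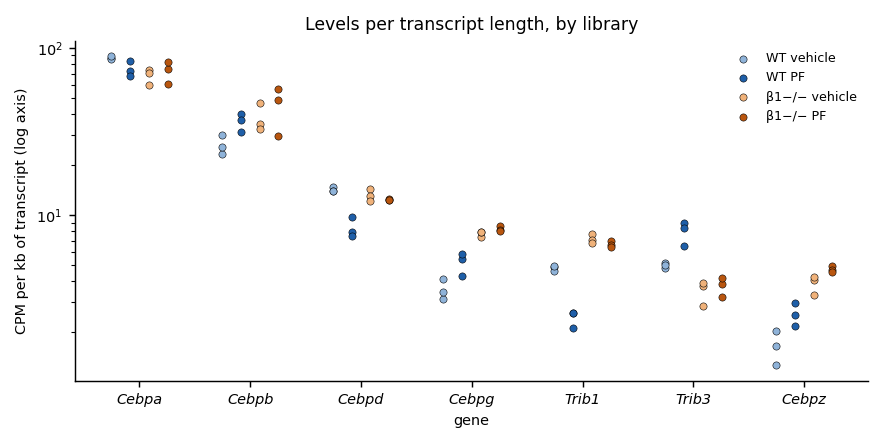
Levels of the 7 tested genes as CPM per kilobase of transcript on a log axis, by group, with points for libraries. *Cebpa* was highest in each group, from 68.4 to 87.3 on average, and *Trib1* and *Trib3* changed places between WT with PF and both AMPKβ1-/- groups.

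The first comparison was PF against vehicle in WT cells, which asks how these genes differed with PF where the β1 subunit was present. *Trib1* was at 21.1, 19.9 and 21.4 CPM with vehicle and at 11.1, 11.2 and 9.15 with PF. The log2 fold change was −0.99 ± 0.11 (SE), a level 0.504 times that of vehicle, and this is the pattern for which the gene was chosen. It was −0.82 with the trend removed. In counts, the 3 libraries with vehicle had 197 to 216 and those with PF 119 to 130.

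*Trib3* moved the other way. It was at 10.5, 9.78 and 10.2 CPM with vehicle and 18.1, 16.9 and 13.2 with PF, so that every PF library was above every vehicle library. *Trib3* rose by 0.66 ± 0.16 on the log2 scale (adjusted p = 0.0149, edgeR's quasi-likelihood test with Benjamini-Hochberg adjustment over 10822 genes). Among the 1605 tested genes with 56 to 60% GC, the median change was −0.24 and 99.6% lay below *Trib3*. With the trend removed, its rise was 0.89 (adjusted p = 0.000376). Without the WT library with PF numbered 2, its adjusted p was 0.0601.

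Of the C/EBP genes, *Cebpd*, the factor of the acute phase response, fell. Its libraries were at 55.0, 51.8 and 51.9 CPM with vehicle and 36.5, 29.7 and 28.1 with PF, with no overlap. The log2 change was −0.75 ± 0.10 (adjusted p = 0.00092, edgeR), the 24th smallest p of 10822 genes. Genes with 48 to 52% GC had a median change of −0.0032, and 0.832% of those 2284 genes lay below *Cebpd*. The fall was −0.68 with the trend removed (adjusted p = 9.1e-05), and it was called under every alternative, with adjusted p between 6.1e-08 and 0.0119.

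*Cebpa*, the factor that TRIB1 targets for degradation, had 228, 225 and 234 CPM with vehicle and 218, 190 and 179 with PF. Its libraries did not overlap, but the change of −0.23 ± 0.11 did not pass the test (adjusted p = 0.145, edgeR). The value was 0.054 once the trend was removed (adjusted p = 0.733). *Cebpb*, which is induced on macrophage activation, had 34.96, 38.6 and 45.5 CPM with vehicle and 47.3, 60.6 and 55.6 with PF. The PF libraries were all above the vehicle libraries, by 0.46 ± 0.21 (adjusted p = 0.134, edgeR), or by 0.66 with the trend removed (adjusted p = 0.132).

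*Cebpg* and *Cebpz* rose. *Cebpg*, a bZIP protein without an activation domain that pairs with other C/EBPs and with ATF4, went from 14.9, 19.5 and 16.3 CPM to 20.2, 25.5 and 27.6, a rise of 0.53 ± 0.13 (adjusted p = 0.0164, edgeR). *Cebpz* is named for CCAAT binding but is not a bZIP protein: it belongs to the NOC1 family of nucleolar ribosome assembly factors. It went from 5.13, 8.22 and 6.67 CPM to 8.75, 10.3 and 12.001, a rise of 0.63 ± 0.18 (adjusted p = 0.0293, edgeR). Both groups of libraries were separate for both genes. The 1509 tested genes with 40 to 44% GC had a median change of 0.42 with quartiles at 0.25 and 0.57, so *Cebpg* lay between the quartiles and *Cebpz* above the upper one. After the trend was taken out, the changes were 0.17 (adjusted p = 0.303) and 0.26 (adjusted p = 0.208).

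In all, 4 of the 6 tested genes other than *Trib1* were called in WT, 3 of them higher and 1 lower, where 15.9% of all tested genes were called, 6.99% higher and 8.95% lower. None reached the size of a differentially expressed gene (DEG, a log2 fold change beyond 0.8), as 1.52% of tested genes did. All 6 had PF and vehicle libraries that did not overlap, which was true of 32.2% of tested genes. *Trib3* and *Cebpd* were the ones called with the trend removed, against 7.3% of tested genes.

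**Figure D2:**
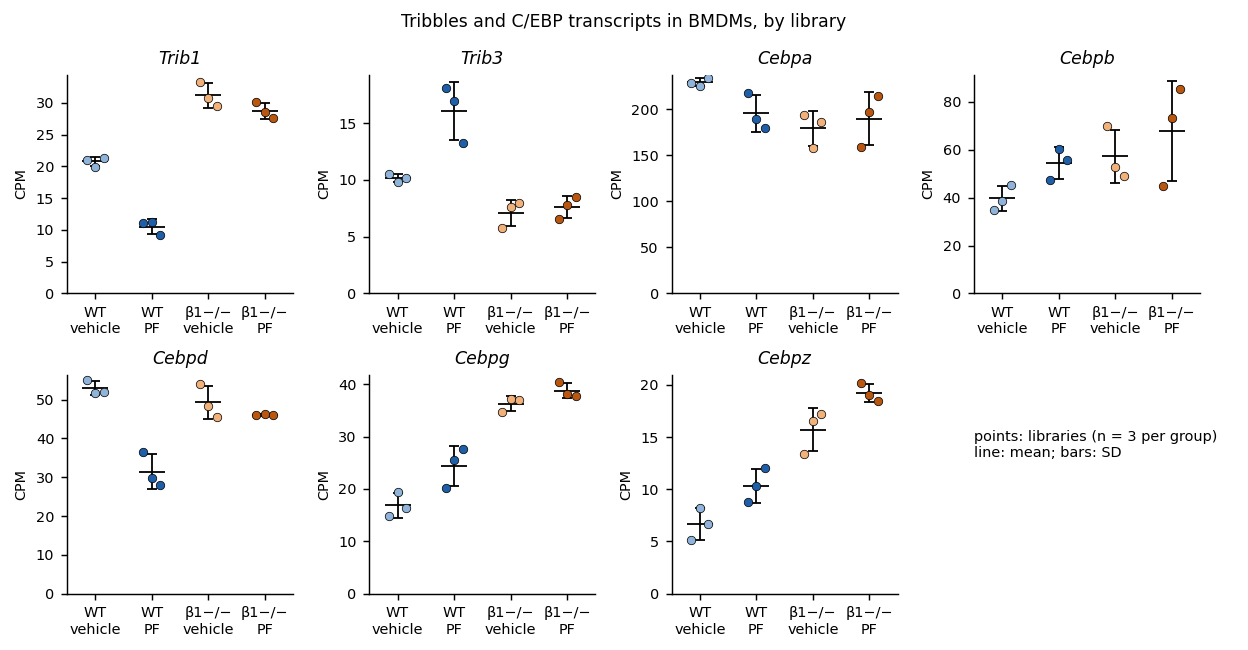
CPM in each library by group for the tested genes, with a line at the mean of each group of 3. In WT, *Trib1*, *Cebpa* and *Cebpd* were lower and *Trib3*, *Cebpb*, *Cebpg* and *Cebpz* higher in every PF library than in any vehicle library. *Trib1* was chosen for its fall in WT. In AMPKβ1-/-, only *Cebpg* and *Cebpz* were separate, both higher with PF, and the ranges of the others overlapped. Of all tested genes, 32.2% were separate in WT and 14.5% in AMPKβ1-/-, in either direction.

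In AMPKβ1-/- cells, the same comparison gave small values. *Trib1* was at 33.3, 30.8 and 29.5 CPM with vehicle and 30.1, 28.6 and 27.6 with PF, a change of −0.12 ± 0.10. *Trib3* was at 5.74, 7.56 and 7.95 CPM against 6.53, 7.77 and 8.46, a change of 0.097 ± 0.17. *Cebpd* was at 53.9, 48.4 and 45.5 CPM against 45.9, 46.3 and 46.0, a change of −0.096 ± 0.10. For all 3 genes the libraries with and without PF overlapped.

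*Cebpa* had 194, 158 and 186 CPM with vehicle and 159, 197 and 215 with PF, and *Cebpb* had 70.0, 52.8 and 49.0 against 44.8, 73.3 and 85.5. The spread within each of these groups was larger than the changes of 0.083 ± 0.11 and 0.24 ± 0.20. *Cebpg* (34.6, 37.2 and 37.0 CPM against 40.5, 38.2 and 37.8) and *Cebpz* (13.4, 16.6 and 17.2 against 20.2, 19.001 and 18.5) were higher in each PF library, by 0.097 ± 0.12 and 0.29 ± 0.15. Such a separation was seen upwards in 8.21% of tested genes and in either direction in 14.5%.

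None of the 6 genes was called in AMPKβ1-/- (edgeR, adjusted p from 0.982 to 0.985), and 0 of them had an unadjusted p below 0.05, as 4.98% of tested genes did. DESeq2 and limma-voom also called 0. Over all genes, 0.0554% were called, so a lack of calls was the rule in this comparison.

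Whether the responses differed between genotypes was tested as the difference of the log2 fold changes, WT minus AMPKβ1-/-. For *Trib1*, which was chosen for it, the difference was −0.87 ± 0.15, or −0.74 with the trend removed. *Cebpd* had a difference of −0.65 ± 0.14 (adjusted p = 0.0697, edgeR), the 53rd smallest p of all tested genes, and this did not pass. It passed with DESeq2 (adjusted p = 0.00821), with the trend removed (adjusted p = 0.0123, where 1.66% of tested genes were called), with a replicate block (adjusted p = 0.0388) and without WT with PF number 1 (adjusted p = 0.00717) or AMPKβ1-/- with vehicle number 1 (adjusted p = 0.0388). The other alternatives gave up to 0.198.

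*Trib3* had a difference of 0.57 ± 0.23 (adjusted p = 0.292, edgeR), or 0.77 with the trend removed (adjusted p = 0.0717). *Cebpg* differed by 0.43 ± 0.17 (adjusted p = 0.286), *Cebpz* by 0.34 ± 0.23 (0.527), *Cebpb* by 0.21 ± 0.29 (0.764) and *Cebpa* by −0.31 ± 0.15 (0.368), all adjusted p-values from edgeR. In the fit without the trend these 4 differences were 0.21, 0.093, 0.43 and −0.048, and 0 of the 4 were called. Of the 6 genes, 0 were called and 3 (*Trib3*, *Cebpd* and *Cebpg*) had an unadjusted p below 0.05, while limma-voom called 0 and DESeq2 called 1. Over all tested genes, 0.416% were called and 14.3% had an unadjusted p below 0.05. The rises of *Trib3*, *Cebpg* and *Cebpz* and the fall of *Cebpd* in WT are therefore not shown to depend on the β1 subunit by this test with edgeR. For *Cebpd* the outcome varied with the alternative used.

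**Figure D3:**
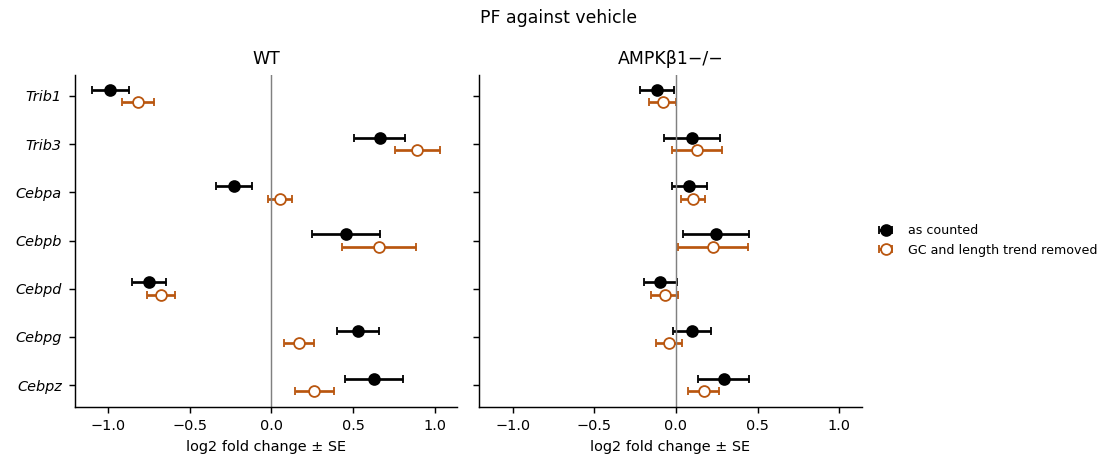
Log2 fold changes of PF against vehicle in WT and AMPKβ1-/- BMDMs, with bars of 1 SE, as fitted and after taking out the GC and length trend. *Trib1* (−0.99), *Cebpd* (−0.75) and *Trib3* (0.66) lay away from 0 in WT with both fits, whereas *Cebpg* and *Cebpz* moved to 0.17 and 0.26 with the trend removed.

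The genotypes were next compared with vehicle, which asks how the genes stood before any PF was given. *Trib1* was higher in AMPKβ1-/-, at 31.2 ± 1.93 CPM (SD, n = 3) against 20.8 ± 0.765 in WT, a log2 fold change of 0.58 ± 0.10. Genes of its GC content, 52 to 56%, had a median of −0.30, and with the trend removed the value for *Trib1* was 0.78. *Trib3* was lower, at 7.09 ± 1.18 against 10.1 ± 0.347 CPM. Its change of −0.51 ± 0.17 passed the test (adjusted p = 0.0158, edgeR), but was close to the median of −0.40 of genes with like GC content, and was −0.070 with the trend removed (adjusted p = 0.758).

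*Cebpg* and *Cebpz* differed most before the trend was removed, and *Cebpb* and *Trib1* after it. *Cebpg* was at 36.3 ± 1.42 CPM in AMPKβ1-/- and 16.9 ± 2.36 in WT, a log2 fold change of 1.10 ± 0.13 (adjusted p = 2.49e-05, edgeR). *Cebpz* was at 15.7 ± 2.03 against 6.67 ± 1.54 CPM, 1.23 ± 0.17 (adjusted p = 7.8e-05). Genes with 40 to 44% GC had a median of 0.94 here, with quartiles at 0.59 and 1.34, and both genes lay within those quartiles. They stayed past the threshold with the trend removed, at 0.28 (adjusted p = 0.0203) and 0.47 (adjusted p = 0.00381).

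*Cebpb* was at 57.3 ± 11.2 CPM in AMPKβ1-/- and 39.7 ± 5.35 in WT, 0.53 ± 0.21 higher (adjusted p = 0.0412, edgeR), and 0.91 higher with the trend removed (adjusted p = 0.0122). Its call was lost without any 1 of 5 libraries, with adjusted p up to 0.177 without AMPKβ1-/- with vehicle number 1, whose 70.0 CPM was the highest of its group. *Cebpa* was lower, at 180 ± 18.9 against 229 ± 4.41 CPM (−0.35 ± 0.11, adjusted p = 0.0114), and was at 0.059 with the trend removed (adjusted p = 0.574). *Cebpd* was at 49.3 ± 4.26 and 52.9 ± 1.81 CPM, and its libraries overlapped (−0.10 ± 0.10, adjusted p = 0.399).

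With vehicle, 5 of the 6 tested genes were thus called, 3 higher and 2 lower, where 59.7% of all tested genes were called, 29.7% higher and 30% lower. In the fit without the trend, 3 were called (*Cebpb*, *Cebpg* and *Cebpz*), beside 34.5% of tested genes. *Cebpd* was the only one of the 6 whose genotypes overlapped, and 62.9% of tested genes had no overlap. *Cebpg* and *Cebpz* were DEGs, as were 17.8% of tested genes. The count of 5 is to be read against these shares of all genes.

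**Figure D4:**
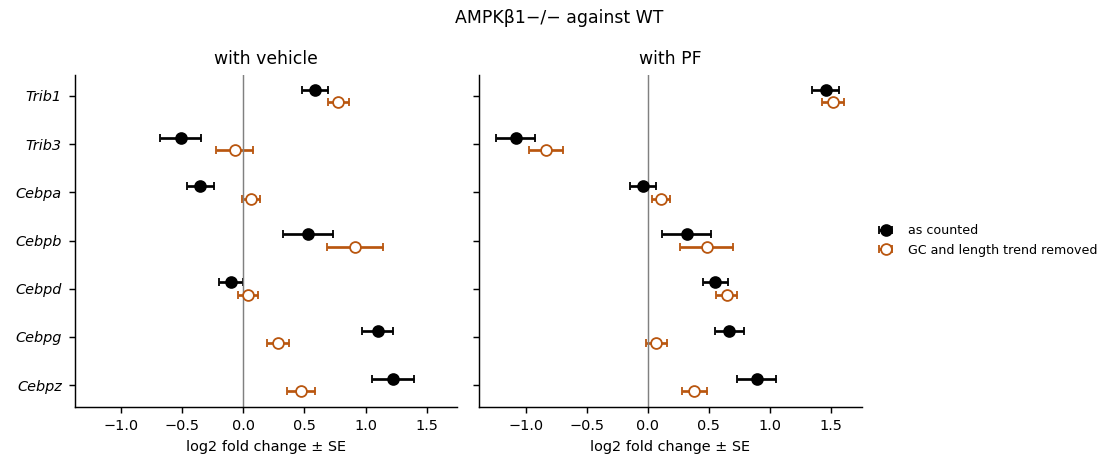
Log2 fold changes of AMPKβ1-/- against WT BMDMs with vehicle and with PF, with bars of 1 SE, as fitted and after taking out the GC and length trend. *Cebpg* and *Cebpz* went from 1.10 and 1.23 with vehicle to 0.28 and 0.47 once the trend was removed, while *Trib1* went from 0.58 to 0.78.

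With PF, *Trib1* and *Trib3* had the largest log2 fold changes between genotypes among these genes. *Trib1* was chosen by its fall in WT with PF, which enters this comparison, so its value is a description only. *Trib1* was at 28.8 ± 1.27 CPM in AMPKβ1-/- and 10.5 ± 1.18 in WT (1.46 ± 0.11, or 2.74-fold), and *Trib3* at 7.59 ± 0.977 and 16.1 ± 2.54 CPM. The log2 fold change of *Trib3* was −1.08 ± 0.16 (adjusted p = 0.000101, edgeR), and it was −0.84 with the trend removed (adjusted p = 0.000141). *Cebpd* was higher in AMPKβ1-/-, at 46.1 ± 0.213 against 31.4 ± 4.49 CPM (0.55 ± 0.10, adjusted p = 0.000586), and the value with the trend removed was 0.65. This comparison shares its WT libraries with the first one, and its values are given side by side with it only.

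*Cebpg* (38.8 ± 1.49 against 24.4 ± 3.84 CPM) and *Cebpz* (19.2 ± 0.877 against 10.3 ± 1.63) were higher with PF as well, by 0.67 ± 0.12 (adjusted p = 0.000473, edgeR) and 0.89 ± 0.16 (adjusted p = 0.00044). *Cebpg* did not pass with the trend removed (0.070, adjusted p = 0.535), while *Cebpz* did (0.38, adjusted p = 0.00646). *Cebpa*, at 190 ± 28.7 and 196 ± 19.98 CPM, and *Cebpb*, at 67.9 ± 20.9 and 54.5 ± 6.68, had overlapping libraries and were not called (adjusted p = 0.777 and 0.215, edgeR). Without AMPKβ1-/- with PF number 1, at 44.8 CPM the lowest of its group, *Cebpb* was 0.54 higher in AMPKβ1-/- (adjusted p = 0.0154). In all, 4 of the 6 genes were called, 3 higher and 1 lower, against 47.1% of tested genes (24.1% higher and 22.9% lower), and *Trib3* and *Cebpz* were DEGs, against 14.3%. The same 4 had libraries that did not overlap, as 59.9% of tested genes had, and 37.8% of tested genes were called with the trend removed.

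**Figure D5:**
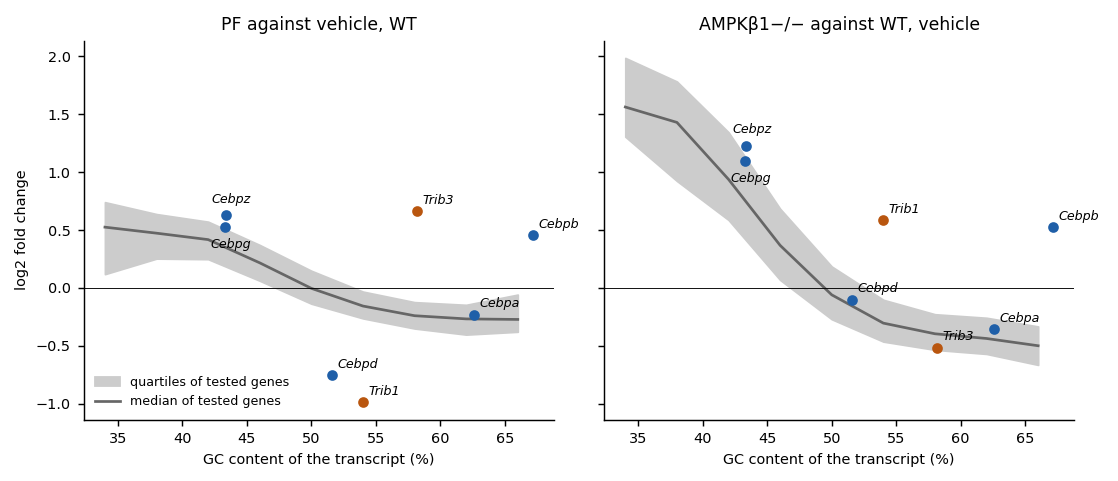
Log2 fold changes against GC content of the transcript for PF in WT and for genotype with vehicle. Tested genes, those of the set included, are summarised in bins of 4 percentage points (median and quartiles), with the named genes as points. *Cebpg* lay between the quartiles of genes of like GC content in both panels and *Cebpz* for genotype only, while *Trib3* and *Cebpd* stood apart from theirs in WT (0.66 against −0.24 and −0.75 against −0.0032).

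The plot of changes against GC content is the widest view of how the set sits among other genes. Across 10780 genes, the log2 fold change and GC content had a Spearman correlation of −0.71 for PF in WT and −0.46 for PF in AMPKβ1-/-. It was −0.50 for the difference of the PF responses, −0.76 for genotype with vehicle and −0.56 for genotype with PF. These are correlations across genes, which are not independent replicates.

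Over the 12 libraries, *Trib1* and *Trib3* had opposite patterns of log2 CPM (Pearson r = −0.93), while *Trib1* and *Cebpd* were alike (0.82), and *Cebpg* and *Cebpz* were nearly the same (0.99). *Trib1* and *Cebpa* had an r of −0.20. The libraries share group, depth and GC slope, so these values describe the 12 libraries and carry no test. The genes outside the set most like *Trib1* were *Slc13a3* (0.984), *Nuak1* (0.977), which encodes an AMPK-related kinase, and *Notch4* (0.965). Those most like *Cebpd* were *Il10ra* (0.965), the IL-10 receptor chain, *Ahdc1* (0.955) and *Csad* (0.954), and those most like *Trib3* were *Gprc5b* (0.952), *Tmem189* (0.952) and *C1qbp* (0.949). For *Cebpg* they were *Riok3* (0.995), *AW549877* (0.993) and *Ppp2r5e* (0.989), and for *Cebpz* *Ubxn4*, *Cbfb* and *Katnbl1* (0.993 each), 6 genes with 37.1 to 45.9% GC. *Fam122a*, *Rnf26* and *Srf* (0.951, 0.932 and 0.925) were most like *Cebpa*, and *Inafm2*, *Adnp* and *Bcl2l2* (0.919, 0.866 and 0.855) most like *Cebpb*.

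The partners of the Tribbles proteins were then counted, by lists written for this purpose. For all list counts, 15.9% of all tested genes were called with PF in WT and 59.7% between genotypes with vehicle. With the trend removed, these shares were 7.3% and 34.5%. Of the 7 genes of the COP1 ligase, 0 were called with PF in WT (edgeR, 2 at an unadjusted p below 0.05, and 0 with DESeq2 or limma-voom), and their median log2 fold change was 0.15, beside 0.0048 for all tested genes. *Cul4b* was at 0.60 ± 0.29 (adjusted p = 0.146, edgeR), the ring subunit *Rbx1* at 0.23 (0.0992), and *Ddb1* and *Dda1*, which link COP1 to the cullin, at −0.19 (0.108) and −0.16 (0.216). *Cop1* itself was at 27.02 ± 8.12 CPM with vehicle and 30.0 ± 6.49 with PF. Between genotypes with vehicle, 3 of the 7 genes were higher and 4 lower in AMPKβ1-/- than in WT, with a median of −0.33 beside −0.026 for all genes, of which 59.7% were called, and 2 were higher and 2 lower with the trend removed. *Cul4b*, a scaffold of the ligase, was higher by 1.78 ± 0.26 (adjusted p = 0.000124, edgeR), or 0.81 with the trend removed, and *Cop1* by 1.06 ± 0.19 (adjusted p = 0.00042), or 0.13 with the trend removed (adjusted p = 0.337).

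Of 7 kinases and relatives tied to the Tribbles, 1 rose and 2 fell with PF in WT, with a median of −0.26. Of all tested genes, 6.99% rose and 8.95% fell. *Stk40*, the pseudokinase closest to the Tribbles that also binds COP1, fell by 0.40 on the log2 scale (adjusted p = 0.0219, edgeR). *Map2k7* fell by 0.30 (adjusted p = 0.0361) and *Map2k4*, the other kinase upstream of JNK, rose by 0.35 ± 0.11 (adjusted p = 0.0454). None of the 3 was called with the trend removed. *Akt2* was at −0.28 (adjusted p = 0.0505). With vehicle, *Akt2* was lower in AMPKβ1-/- (−0.63, adjusted p = 0.000102, edgeR), and its value was −0.41 with the trend removed.

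Of 12 bZIP partners of C/EBPs, 10 were tested, and *Cebpe*, the granulocyte C/EBP, had 1 to 6 counts in a library. With PF in WT, 0 rose and 1 fell, *Tef* (−0.35 ± 0.08, adjusted p = 0.016, edgeR). *Atf4*, which drives *Trib3*, was at 131 ± 5.68 CPM with vehicle and 152 ± 3.23 with PF, a value of 0.21 ± 0.07 that did not pass (adjusted p = 0.0544, edgeR). In the fit without the trend *Atf4* (0.34, adjusted p = 0.00402) and *Atf3* (0.27, adjusted p = 0.00574) were called and *Tef* was not (adjusted p = 0.0714). *Ddit3*, which encodes CHOP, was at 32.9 ± 0.638 and 38.4 ± 3.53 CPM (0.22 ± 0.10, adjusted p = 0.113), and *Atf3*, as first fitted, was at 0.19 (adjusted p = 0.0962). Of the 10, 0 were higher and 8 lower in AMPKβ1-/- with vehicle, *Dbp* (−0.61) and *Atf5* (−0.47) among them, with a median of −0.43, where 29.7% of all tested genes were higher and 30% lower. Neither *Dbp* (−0.15, adjusted p = 0.261) nor *Atf5* (−0.016, adjusted p = 0.867) was called with the trend removed. With the trend removed 1 was higher and 1 lower.

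The targets of ATF4 and CHOP did not move as one with *Trib3*. Of 17 tested genes of 18, 1 rose and 2 fell with PF in WT, with a median of −0.015. *Mthfd2*, of mitochondrial folate metabolism, rose from 18.2 ± 1.47 to 23.96 ± 0.510 CPM (0.39 ± 0.11, adjusted p = 0.0295, edgeR). *Sesn2* (−0.48 ± 0.13, adjusted p = 0.0235) and *Herpud1* (−0.40 ± 0.12, adjusted p = 0.0324) fell, and *Shmt2* was at −0.24 (adjusted p = 0.108). With the trend removed 3 rose (*Mthfd2*, *Aars* and *Ppp1r15a*) and 0 fell. Against WT with vehicle, 0 were higher and 9 lower in AMPKβ1-/-, with a median of −0.37, where 29.7% of all tested genes were higher and 30% lower. *Phgdh*, the first enzyme of serine synthesis, was at 8.02 ± 0.433 CPM against 22.2 ± 2.36 in WT. Its log2 fold change was −1.48 ± 0.14 (adjusted p = 9.59e-06, edgeR), or −1.05 with the trend removed, and *Shmt2* was at −0.59 (adjusted p = 0.000275), or −0.17 with the trend removed (adjusted p = 0.0669). In the fit without the trend, 5 of the 17 were lower, and 34.5% of all tested genes were called.

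Of 28 myeloid genes known as C/EBP targets, 19 were tested, and with PF in WT 2 rose and 3 fell, with a median of −0.14. *Csf1r*, the receptor for M-CSF, went from 7372 ± 734 to 4937 ± 300 CPM, a fall of −0.58 ± 0.09 (adjusted p = 0.00207, edgeR). *Cd14*, the LPS co-receptor (−0.43 ± 0.09, adjusted p = 0.00664), and *Itgam*, the integrin CD11b (−0.39 ± 0.08, adjusted p = 0.00947), fell with it, and all 3 were called with the trend removed. These 3 are also 3 of the 8 macrophage markers, of which 3 were lower and 0 higher with PF in WT. *Ccl3*, a chemokine, rose by 0.59 ± 0.11 (adjusted p = 0.00424) and *Il1rn*, the IL-1 receptor antagonist, by 0.49 ± 0.15 (adjusted p = 0.0371), but with the trend removed neither was called (0.22 each, adjusted p = 0.465 and 0.508). In that fit 0 rose and 5 fell, *Il10* (−1.17, adjusted p = 0.0241) and *Il1b* (−0.82, adjusted p = 0.0163) in addition to the first 3. *Il10*, an anti-inflammatory cytokine, had 13 to 35 counts in the WT libraries and *Il1b*, which encodes IL-1β, 24 to 42, and neither passed as first fitted (−0.78 and −0.53, adjusted p = 0.0690 and 0.102, edgeR). In AMPKβ1-/- with vehicle, 4 were higher and 7 lower, with a median of 0.11, and 3 were higher and 3 lower with the trend removed. Of all tested genes, 29.7% were higher and 30% lower, and 34.5% were called with the trend removed. Among the 4 higher genes were *Ccr2* (1.77, adjusted p = 0.00014, edgeR) and *Msr1* (1.23, adjusted p = 0.000227), with values of 0.44 and −0.023 once the trend was removed. *Marco*, a scavenger receptor, was at 4.14 ± 1.02 CPM against 1.75 ± 0.0841 in WT (1.25 ± 0.28, adjusted p = 0.00149, edgeR), and was at 1.61 with the trend removed (adjusted p = 0.000171).

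For *Cebpz*, the list was 13 genes of nucleolar and pre-60S ribosome assembly. With PF in WT, 0 rose and 1 fell, *Bop1* (−0.33 ± 0.11, adjusted p = 0.0478, edgeR), and the median was −0.0096. *Bop1* was at −0.075 with the trend removed (adjusted p = 0.580), and 0 of the 13 were then called. *Noc2l* (−0.25, adjusted p = 0.0544), *Pes1* (−0.23, adjusted p = 0.0604) and *Npm1* (0.54, adjusted p = 0.0902) came next by p and did not pass. In AMPKβ1-/- with vehicle 4 were higher and 5 lower, with a median of −0.044, where 29.7% of all tested genes were higher and 30% lower. *Noc2l* (−0.49) and *Pes1* (−0.54) were lower where *Cebpz* was higher. With the trend removed 1 was higher and 2, *Pes1* (−0.43) and *Wdr12* (−1.35), lower, while *Noc2l* was at −0.13 (adjusted p = 0.0793).

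In AMPKβ1-/-, PF gave 0 calls in each of the 6 lists with edgeR, where 0.0554% of all tested genes were called. At an unadjusted p below 0.05 there were 2 genes among the C/EBP targets, 1 among the bZIP partners and 0 in the other 4 lists. Of all tested genes, 4.98% had such a p. DESeq2 called *Ccl5* lower, and limma-voom called 0. The difference between the genotypes' responses also gave 0 calls in each list with edgeR, and 0 with limma-voom. With edgeR, 0.416% of all tested genes were called for it, so lists of this size would seldom hold a call. At an unadjusted p below 0.05 were 9 of the 19 C/EBP targets, against 14.3% of all tested genes. The same held for 2 of the Tribbles kinase partners, 2 ATF4 and CHOP targets and 1 bZIP partner, and for 0 of the COP1 ligase and pre-60S genes. DESeq2 called *Ccl3* and *Itgam*, and *Itgam* was called with the trend removed (−0.47, adjusted p = 0.0044).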

How the data were processed

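RNA sequencing of 12 BMDM libraries was analysed, 3 in each of 4 groups taken from the labels, and count columns were mapped to groups by name. The authors trimmed reads with Trim Galore, quantified transcripts with Salmon and deposited whole-number counts per gene without normalization, which may be rounded estimates. Versions, genome build and strand setting are not given in the sources used here. No replicate libraries were identical (chi-square per degree of freedom 2.19 to 18.5).

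Counts were tested in R 4.3.3 with edgeR 4.0.16 (quasi-likelihood, robust, TMM, filterByExpr, 1 fit of 4 group means to 12 libraries), which left 10822 of 12960 genes, with Benjamini-Hochberg adjustment over these. A call had an adjusted p below 0.05 and a DEG also a log2 fold change beyond 0.8. SE were derived from the fold change and F statistic and are approximate. CPM are TMM-normalized, and 2 was the prior count of log2 CPM. Lengths and GC content came from the longest coding transcript in GENCODE M21 on GRCm38 (12703 genes matched by symbol, 166 by an older symbol, 91 not matched; 10780 tested genes, 99.6%, had GC content). The GC and length trend of each library was modelled by natural splines (5 degrees of freedom) and subtracted through an offset. Floors cover counting error only.

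All 8 genes were named, with, for each, the 3 genes highest in Pearson r over libraries, and in each list the 4 smallest p for PF in WT and the 2 smallest for genotype with vehicle; list genes outside this rule were named after their values were seen where a count of 5 or fewer rested on them. The result for 1 gene under this rule is not reported here. The genes and lists were chosen with earlier results of these data known. *Trib1* was given no test. Alternatives were other scalings (DESeq2 1.42.0 size factors, upper quartile, library size), filters, DESeq2, limma-voom (limma 3.58.1), only the libraries compared, the GC and length offset, a replicate block and leaving out each library. Scripts were tested on simulated data.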

Additional observations from a re-analysis of the deposited data

How the results depend on the processing

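Values of the 7 tested genes in 5 comparisons were recomputed under up to 22 alternatives. Of 654 values of the 6 genes given a test, 609 kept their direction and side of the threshold, 25 lost a call, 7 gained one and 13 changed sign. *Trib1*, with no test, had 109 values, of which 104 moved by less than the spread between replicates and 5 by more, and its direction did not change. With PF in WT, 4 genes were called; 0 were DEGs, 2 were called with only the libraries compared, 2 with the GC and length trend removed and 1 to 5 with a library left out. Without WT with vehicle number 1 or 3 or WT with PF number 3, *Cebpd* and *Trib3* alone were called; without WT with PF number 2, *Cebpd* alone; without WT with PF number 1, *Cebpa* was added (adjusted p = 0.0497). For the difference of responses, 0 were called, and 1, *Cebpd*, with DESeq2, with the trend removed and with the replicate block, and 0 to 1 with a library left out. In AMPKβ1-/- with PF, 0 were called with any library left out. Between genotypes with vehicle, 5 were called; 2 were DEGs, 3 were called by library size alone, 3 with the trend removed and 3 to 5 with a library left out. Without AMPKβ1-/- with vehicle number 1, *Trib3* and *Cebpb* were lost, and without number 2, *Cebpa* and *Cebpb*. Between genotypes with PF, 4 were called, 2 were DEGs, and 4 to 5 were called with a library left out.

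Changes of sign were all in uncalled values, except *Cebpa* between genotypes with vehicle, which was 0.059 with the trend removed. With the trend removed *Cebpa* was 0.054 with PF in WT and 0.11 between genotypes with PF, *Cebpg* was −0.043 with PF in AMPKβ1-/- and *Cebpd* was 0.038 between genotypes with vehicle. With library size alone, *Cebpd* was 0.11 between genotypes with vehicle and *Cebpa* 0.11 with PF; that scaling shifted the median of all genes by 0.21 and 0.15. With a library left out, *Trib3* with PF in AMPKβ1-/- ranged from −0.029 to 0.19, *Cebpa* there from −0.013 to 0.20, *Cebpb* in the difference of responses from −0.014 to 0.41, and *Cebpa* between genotypes with PF from −0.14 to 0.073. The cause of these changes was not tested.

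Over all genes, PF in WT gave 1725 calls, 419 with only the libraries compared, 790 with the trend removed and 346 to 3243 with a library left out. The difference of responses gave 45, 190 with DESeq2 and 180 with the trend removed. Libraries of the same number had deviations that correlated between −0.17 and 0.32, so no pairing was taken from the numbers. The replicate block changed the call of *Cebpd* alone (adjusted p = 0.0388). With 3 libraries a group, a gene that missed the threshold is not shown to be unchanged, and the low counts of *Trib2* allow no statement on its response.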
